A study of Mus musculus with 6 samples.

Results

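The endothelium of the fetal mouse lung was compared between embryonic day (E) 13.5 and E15.5, by setting the summed expression of 162 endothelial cells (ECs) of the E13.5 library against that of 8832 ECs of the E15.5 library. These 8994 cells were chosen from 13098 and 12789 cell barcodes of these libraries, of 63659 in the 6 droplet libraries of the series. A cell was taken as endothelial when it had at least 700 detected genes, 0.5% to 10% of its unique molecular identifiers (UMIs, counted RNA molecules) from mitochondrial genes, at least 3 UMIs of Pecam1, Cdh5 and Cldn5 together and at most 2 UMIs of Col1a1, Col1a2 and Col3a1 together. The study followed the growing pulmonary arteries through cells that carry a Cxcl12 reporter. All lungs of both ages had the genotype Cxcl12DsRed/+, in which DsRed sits in 1 copy of Cxcl12 and removes that copy's function, so both ages also had only 1 working copy of this chemokine gene. Lungs were pooled before sorting for DsRed and CD31 (the product of Pecam1) and against EpCAM and CD45, and the sorting notes also name a CD31-negative, mesenchyme-enriched fraction. The cells are therefore no sample of the whole lung endothelium, and the reporter itself is not among the features counted. There was 1 library at each age, so no test, p-value or standard error is given, and each interval printed is an exact 95% interval for counting error alone. The lungs, the sort, the library and the software version cannot be told apart from age.

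Blood vessels of the lung form in step with the branching airways. Arteries bring blood from the heart along the airways, veins return it, and a capillary plexus between them becomes the surface for gas exchange. Arterial ECs depend on Notch signalling and on transcription factors such as Sox17 and carry the gap-junction proteins connexin 37 (Gja4) and connexin 40 (Gja5). Capillary ECs are known for handling of fatty acids, with Gpihbp1, which holds lipoprotein lipase on the vessel wall, and the fatty acid carriers Cd36 and Fabp4.

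The E13.5 library went against a CD31-positive sort. ECs made up 1.27% (1.09% to 1.48%) of its 12726 cells that passed the limits, and 94.7% were mesenchymal, meaning no UMI of the endothelial genes and at least 3 of the collagen genes. In the E15.5 library, ECs were 75.8% (75.03% to 76.6%) of 11649 cells and mesenchymal cells 14.8%. Whether the E13.5 ECs came through the CD31-positive gate or were carried along in the CD31-negative fraction cannot be told apart, and either would bear on every E13.5 level below. At the edges of the rule, 4 E13.5 and 19 E15.5 ECs had exactly 3 UMIs of the endothelial genes, and 1 and 12 cells just outside had 2. With exactly 2 collagen UMIs, 24 E13.5 and 285 E15.5 cells were inside, and 6 and 89 cells with 3 were outside. The ECs held 1089397 UMIs at E13.5 and 86843520 at E15.5, with a median of 6378 and 8461 UMIs per cell, so the precision of every comparison was set by the E13.5 side. The libraries shared 54 barcodes, of which 0 belonged to ECs in both.

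The cells at both ages carried endothelial RNA. Of 20 endothelial genes that the rule did not use, all 20 reached 10 counts per 1000000 UMIs (CPM), and their summed level was 7105 CPM at E13.5 and 6717 CPM at E15.5, against 118 CPM in E13.5 and 225 CPM in E15.5 mesenchymal cells. RNA that other cells also carry was present and not equal. A list of 20 mesenchymal genes summed to 474 CPM at E13.5 and 322 CPM at E15.5, which is 12.4% and 4.89% of its level in the mesenchymal cells of the same libraries, 15 smooth muscle and pericyte genes to 187 and 56.5 CPM, and 11 erythroid genes to 186 and 645 CPM. Of the 7 mesenchymal genes of at least 10 CPM, 3 (Col6a2, Dcn and Mfap4) stood at least 2-fold higher at E13.5 and 0 at E15.5. All 3 were below 10 CPM at E15.5, and Mfap4 had the lowest ratio, with 45.9 and 4.26 CPM. Col5a2 (154 and 123 CPM) and Mfap2 (151 and 121 CPM) gave most of the sum at both ages, while the defining genes Tbx4, Tcf21 and Pdgfra were at 2.75, 1.84 and 4.59 CPM at E13.5 and Gli1 was at 0. All 4 smooth muscle and pericyte genes of at least 10 CPM stood at least 2-fold higher at E13.5, with a median log2 ratio of E15.5 over E13.5 of -2.31. Actg2 and Notch3 among them were below 10 CPM at E15.5, and the 2 of at least 10 CPM at both ages had a median of -1.69. Of 5 such erythroid genes, 3 stood at least 2-fold higher at E15.5 and 1 at E13.5, with a median of 3.54. Hba-a1 and Hbb-bt among them were below 10 CPM at E13.5. Of the 3 erythroid genes of at least 10 CPM at both ages, 1 stood higher at each age, with a median of -0.12. Ptprc, the CD45 gene, and Epcam had no UMI at E13.5 (3 UMIs would be 2.75 CPM) and were at 0.0345 and 1.47 CPM at E15.5. Their lists summed higher at E13.5 through 1 member each, with 12 epithelial genes at 165 and 108 CPM and 12 immune genes at 48.7 and 26.9 CPM. Each list had 1 member of at least 10 CPM, with a log2 ratio of -0.69 (epithelial) and -1.31 (immune). That member alone was at 154 and 95.1 CPM (epithelial) and at 44.1 and 17.5 CPM (immune). Of the 12 genes of each list, 6 epithelial and 8 immune genes had no UMI at E13.5. Of the haemoglobin UMIs at E15.5, 96.9% came from 26 cells with at least 100 each. Scrublet, a doublet caller, marked 2 of the 162 and 157 of the 8832 cells. Xist, which is transcribed in female cells, was at 274 CPM at E13.5 and 837 CPM at E15.5, and a UMI of a Y-linked gene was seen in 37.7% and 20.9% of ECs, so the pools differed in sex. The part of these differences in the results below was not tested beyond the values given.

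Of 8345 genes with at least 10 CPM in either library, 282 (3.38%) stood at least 2-fold higher at E15.5 and 333 (3.99%) at least 2-fold higher at E13.5, together 7.37%. The median log2 ratio of E15.5 over E13.5, computed after adding 0.5 CPM to both levels, was -0.08, with quartiles of -0.39 and 0.24. Most genes were thus within 2-fold between the ages. At the level of the rule's own genes, which are given as a description, Pecam1 was at 508 and 585 CPM, Cdh5 at 593 and 799 CPM and Cldn5 at 1678 and 1011 CPM at E13.5 and E15.5.

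**Figure D1:**
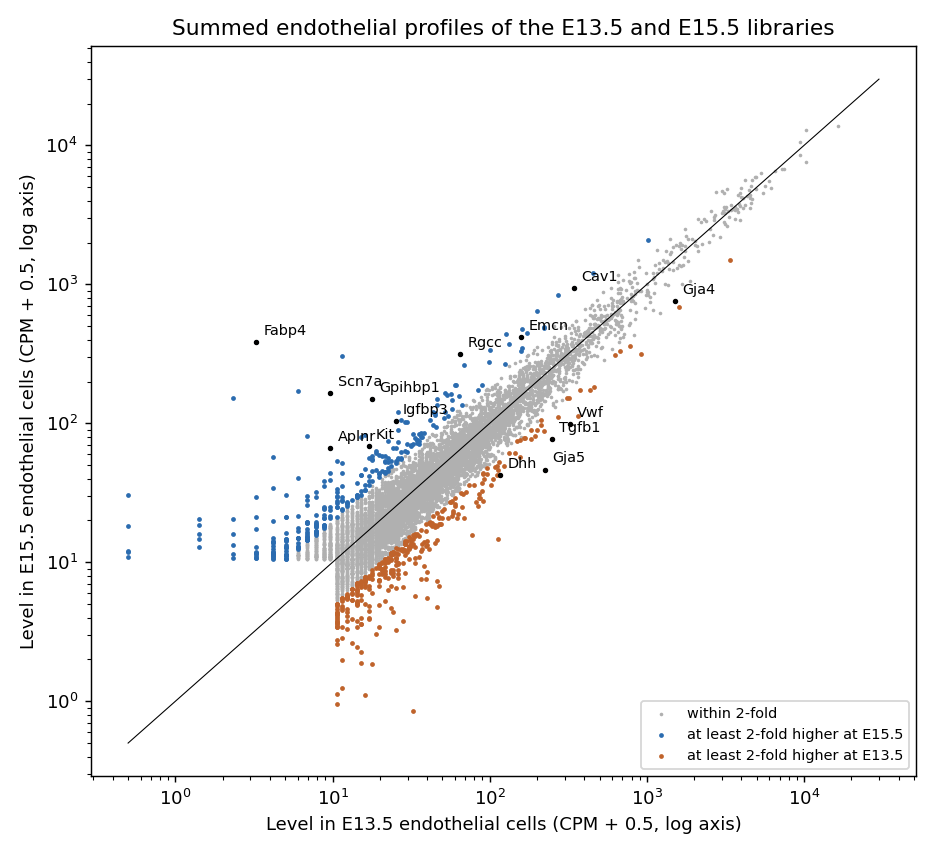
Each point is 1 of 8345 genes, with its summed level (CPM plus 0.5, log axes) in 162 E13.5 ECs on the horizontal axis and in 8832 E15.5 ECs on the vertical axis. Most genes lie along the line of equal levels, while capillary genes such as Fabp4 and Gpihbp1 lie above it and Gja5, Vwf and Tgfb1 below it.

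Of the 15 genes named as higher at E15.5, Fabp4 had the largest ratio, followed by Scn7a, Dynlt1f and Gpihbp1. Gpihbp1 was at 17.4 CPM (10.5 to 27.2) at E13.5 and 149 CPM (146 to 152) at E15.5, a log2 ratio of 3.06 (2.45 to 3.83). With each cell thinned to 3000 UMIs, a Gpihbp1 UMI was seen in 2.58% of E13.5 and 24.8% of E15.5 ECs, against 0.0171% and 0.476% of mesenchymal cells. Its level went on to 449 CPM in E18.5 and 966 CPM in postnatal day (P) 8 ECs chosen by the same rule.

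Fabp4 had 3 UMIs at E13.5, a level of 2.75 CPM (0.568 to 8.05), and was at 383 CPM (379 to 387) at E15.5. The log2 ratio was 6.88 (5.57 to 9.40). After thinning, 8.96% of E15.5 ECs had a Fabp4 UMI, below the 12.4% of mesenchymal cells, so nothing is read from the share, although the mesenchymal level was lower at 83.7 CPM. At E15.5 Fabp4 was at 813 CPM in ECs without a UMI of the arterial genes Gja4, Stmn2 and Hey1. In ECs with at least 4 of these UMIs it was at 189 CPM. The paper reports an EC cluster marked by Fabp4 and Fabp5, and its part in this ratio was not tested. Cd36, a fatty acid transporter, had 1 UMI at E13.5 (0.918 CPM) and was at 20.0 CPM at E15.5, a log2 ratio of 3.86 (1.97 to 9.75).

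Scn7a encodes a sodium channel family protein. It was at 9.18 CPM (4.40 to 16.9) at E13.5 and 164 CPM (161 to 166) at E15.5, a log2 ratio of 4.08 (3.28 to 5.22), and reached 1133 CPM in E18.5 ECs and 1084 CPM in P8 ECs. In mesenchymal cells it was at 0.520 and 4.08 CPM. Aplnr, the receptor of the vascular peptide apelin, was at 9.18 and 65.5 CPM (log2 ratio 2.77, 1.96 to 3.90). Its ligand gene Apln had 3 UMIs at E13.5 (2.75 CPM) and was at 16.9 CPM at E15.5 (log2 ratio 2.42, 1.07 to 4.90). Kit, a receptor tyrosine kinase that marks general capillary cells in the mature lung, was at 16.5 and 67.7 CPM (2.0, 1.37 to 2.79), with a log2 ratio of 1.34 in thinned cells, 1.41 without cycling cells and 1.15 in cells with arterial RNA.

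Among the other genes of this direction, Rgcc, a cell cycle regulator, was at 64.3 and 316 CPM (log2 ratio 2.29). Tmem88, which encodes a membrane protein that dampens Wnt signalling, was at 10.1 and 52.9 CPM (2.33), and Igfbp3, a binding protein for insulin-like growth factors, at 24.8 and 104 CPM (2.05). The ETS factor Ets2 (25.7 and 89.3 CPM), the kinase Pim3 (18.4 and 62.5 CPM), Tcim (45.9 and 150 CPM) and Nrros (17.4 and 57.5 CPM), which encodes a partner of latent TGF-beta, had log2 ratios of 1.78, 1.74, 1.70 and 1.69. Without cycling cells Nrros was 0.77, inside 2-fold. Gmfg, an actin regulator of blood and vessel cells, had a log2 ratio of 2.36. Gmfg and 2 further genes of this direction are uncertain, because 3′ stretches of their transcripts recur in other genes. The share of 60-base stretches near the 3′ end found elsewhere was 35.0% for Gmfg (in Gmfg-ps), 82.0% for Dynlt1f (in Dynlt1a, Dynlt1b and Dynlt1c, log2 ratio 3.79) and 93.8% for Amd2 (in Amd1, log2 ratio 1.82). In 5 of the 15 genes named for this direction the mesenchymal cells also stood at least 2-fold higher at E15.5, namely Fabp4, Scn7a, Dynlt1f, Gpihbp1 (0.0624 and 1.38 CPM there) and Nrros, against 5.57% of the 8345 genes in those cells. Gpihbp1, Nrros (0.114 and 1.17 CPM) and Scn7a (0.520 and 4.08 CPM) were near the floor there. A part of EC RNA in these mesenchymal levels was not tested.

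Of the 15 genes named as higher at E13.5, the arterial connexin gene Gja5 had the largest ratio, followed by Sost, Vwf, Megf6 and Tgfb1. Gja5 was at 224 CPM (197 to 254) at E13.5 and 46.0 CPM (44.6 to 47.4) at E15.5, a log2 ratio of -2.27 (-2.47 to -2.09). After thinning, a Gja5 UMI was seen in 41.9% of E13.5 and 12.5% of E15.5 ECs, against 0.580% and 0.178% of mesenchymal cells. In E18.5 ECs it stood at 105 CPM and in P8 ECs at 39.6 CPM, so its level did not keep 1 direction over the 4 ages.

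Vwf, the clotting protein stored by ECs of larger vessels, was at 322 CPM (289 to 358) and 98.0 CPM (95.9 to 100), a log2 ratio of -1.71 (-1.87 to -1.56). A Vwf UMI was seen in 48.4% and 19.5% of the thinned ECs and in at most 0.654% of mesenchymal cells. Tgfb1, the growth factor TGF-beta 1, was at 250 CPM (221 to 281) and 76.5 CPM (74.7 to 78.4), a log2 ratio of -1.70 (-1.88 to -1.53), with a mesenchymal level of 11.7 and 11.4 CPM. Dhh, a hedgehog ligand made by ECs and Schwann cells, was at 116 and 41.8 CPM (-1.46), and Lyl1, a blood and endothelial transcription factor, at 110 and 41.8 CPM (-1.39). Inside 2-fold were Dhh (-0.88) and Lyl1 (-0.97) without cycling cells and Dhh (-0.99) in thinned cells.

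Sost, an inhibitor of Wnt signalling, was at 67.9 CPM in E13.5 and 20.2 CPM in E15.5 ECs (log2 ratio -1.72), while in the mesenchymal cells it was at 0.0728 and 65.9 CPM, the opposite order. The source of the Sost RNA at either age was not tested. Megf6 (-1.71), the organic anion transporter Slco3a1 (-1.59), Klhl35 (-1.58), the actin-associated Synpo (-1.57), the costimulatory receptor Cd40 (-1.50), the matrix protein Ecm1 (-1.50), the synuclein Sncg (-1.47), the cell-surface protein Emb (-1.47) and the Wnt regulator Cxxc5 (-1.41) completed the 15 genes of this direction, with E13.5 levels of 61.5 CPM (Klhl35) to 101 CPM (Ecm1). Emb was -0.17 without cycling cells and Synpo -0.96 in thinned cells, both inside 2-fold. Of these 15 genes, 2 also stood at least 2-fold higher at E13.5 in mesenchymal cells, against 3.07% of the 8345 genes there.

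**Figure D2:**
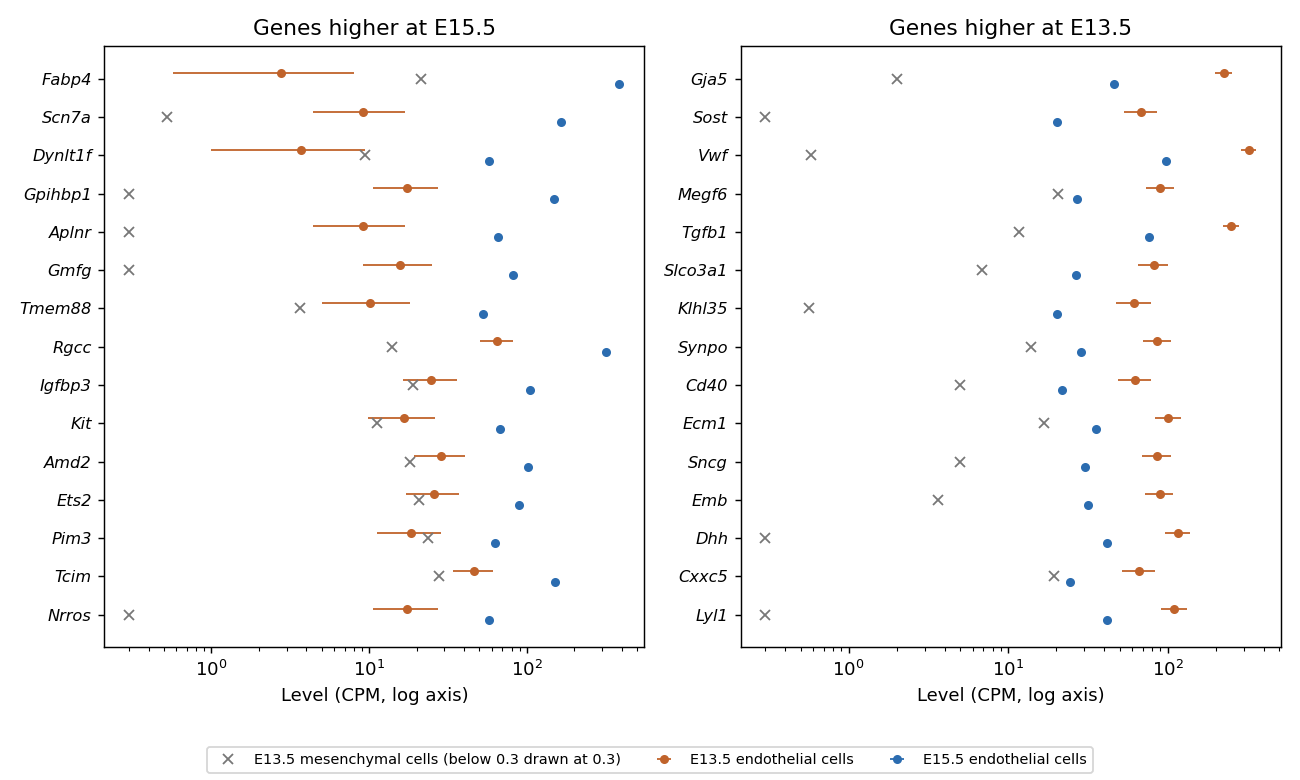
Levels (CPM, log axis) of the 15 named genes of each direction in ECs at E13.5 and E15.5, with exact 95% counting intervals as lines, and in E13.5 mesenchymal cells as crosses (levels below 0.3 CPM drawn at 0.3). The genes were chosen for large ratios, so the intervals of the 2 ages, which do not overlap for any of the 30 genes, restate that choice. The E13.5 intervals are the wider ones.

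The promoters of the gene that led the E13.5 side and of Scn7a on the E15.5 side are shown from RefSeq (GRCm38.p6, 250 bases before to 50 after the start), to be read against the cell cycle promoters shown further on. Gja5 lies at chr3:97032152-97032451 on the plus strand and Scn7a at chr2:66784861-66785160 on the minus strand, and both are printed 5′ to 3′ in the direction of the gene.
Gja5: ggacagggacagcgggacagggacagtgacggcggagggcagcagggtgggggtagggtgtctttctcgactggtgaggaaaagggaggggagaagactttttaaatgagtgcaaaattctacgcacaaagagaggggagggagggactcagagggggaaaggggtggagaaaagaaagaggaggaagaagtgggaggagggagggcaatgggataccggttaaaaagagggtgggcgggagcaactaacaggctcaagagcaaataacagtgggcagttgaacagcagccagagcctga
Scn7a: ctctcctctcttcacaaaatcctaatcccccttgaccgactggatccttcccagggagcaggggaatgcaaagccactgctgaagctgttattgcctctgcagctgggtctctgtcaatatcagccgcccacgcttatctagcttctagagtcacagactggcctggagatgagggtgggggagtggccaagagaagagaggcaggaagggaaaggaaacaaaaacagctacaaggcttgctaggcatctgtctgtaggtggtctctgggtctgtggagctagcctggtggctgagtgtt
The letters looked for on both strands were CCGGAA as a core of ETS factor sites, CACGTG as the E-box, ACGTG as a hypoxia core that also lies within the E-box, CCAAT as the NF-Y box, TTTGAA as the cell cycle homology region, and neither window held any of them, so no letters stand in capitals. CCGGAA was in 24.9% of the 205 genes at least 2-fold higher at E15.5 and 24.5% of the 241 at least 2-fold higher at E13.5 that had a promoter in the table, against 35.0% of 6619 measured genes and 16.7% of all 27025. ACGTG was in 25.9% and 26.6%, against 30.9% of the measured genes and 21.8% of all.

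The E13.5 cells carried more arterial RNA per cell. In cells thinned to 3000 UMIs, 20 arterial genes summed to a median of 26 UMIs in 155 E13.5 ECs (quartiles 20.5 and 35) and 16 UMIs in 8737 E15.5 ECs (quartiles 5 and 29), with 7 and 95 shallower cells left out. The general capillary and plexus list, without Cldn5 because the rule used it, gave a median of 5 and 7 UMIs. For the arterial list the lower quartiles lay further apart than the upper ones. The arterial genes Gja4, Stmn2 and Hey1 together had at least 4 UMIs in 91.6% (86.1% to 95.5%) of E13.5 and 59.5% (58.5% to 60.6%) of E15.5 ECs, and no UMI in 1.94% and 18.4%. Only 6 of 155 E13.5 ECs (3.87%) but 2640 of 8737 E15.5 ECs (30.2%) had more capillary than arterial UMIs. A class cut at 4 UMIs is a range and not a cell type, and 1 E13.5 and 530 E15.5 cells had exactly 4. The sort, and how many of each kind of EC entered it, can set these shares.

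**Figure D3:**
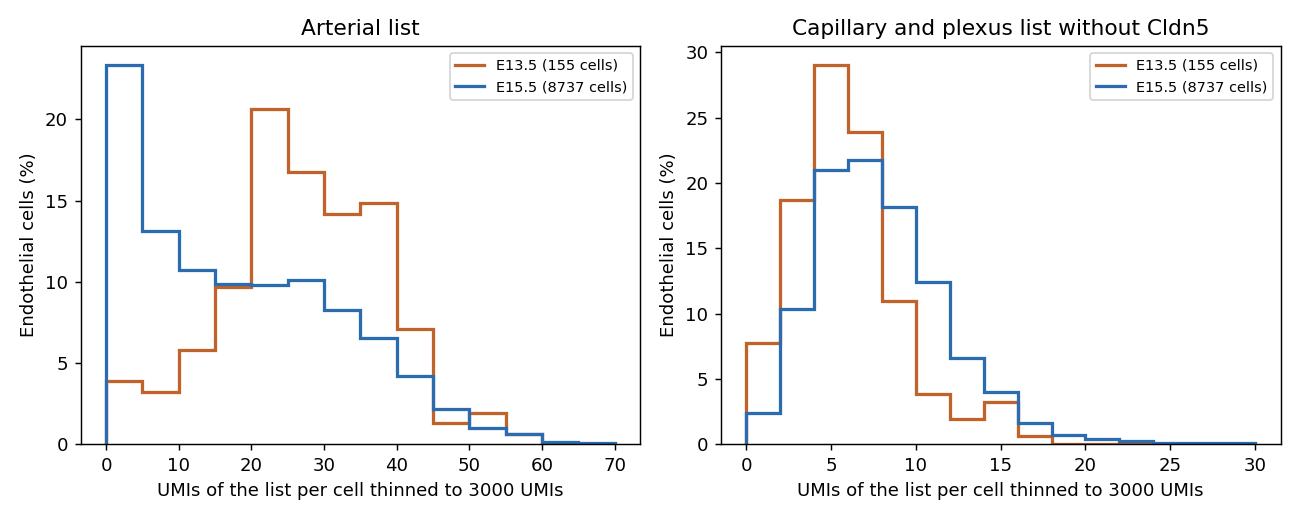
Percent of ECs (vertical axes) by UMIs of the arterial list (left) and of the capillary and plexus list without Cldn5 (right) per cell thinned to 3000 UMIs, at E13.5 (155 cells) and E15.5 (8737 cells). The E15.5 cells include many with fewer than 5 arterial UMIs, of which there are few at E13.5, where the median is 26.

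To see which differences also stood among cells with arterial RNA, the comparison was repeated in the 142 E13.5 and 5201 E15.5 ECs with at least 4 UMIs of Gja4, Stmn2 and Hey1, a choice made after the data had been seen. Of 8307 genes, 289 (3.48%) stood at least 2-fold higher at E15.5 and 299 (3.6%) at least 2-fold higher at E13.5. The named genes were chosen in all 162 E13.5 and 8832 E15.5 ECs, of which these cells are a large part. Most were therefore likely to stay past 2-fold, and the repeat is no check of them. All 15 genes named for E15.5 stood at least 2-fold higher there in these cells too, with a median log2 ratio of 2.17 in place of 2.29. Kit (1.15, 0.45 to 2.02) and Ets2 (1.11, 0.54 to 1.79) came close to 2-fold. Of the 15 named for E13.5, 13 stayed past 2-fold, and the median log2 ratio came closer to 0, from -1.57 to -1.14. Gja5 moved from -2.27 to -1.69 (-1.88 to -1.50), Vwf from -1.71 to -1.14, Sost from -1.72 to -1.10, and Dhh and Emb to -0.79 and -0.78. Tgfb1 was -1.77 among the arterial cells and -1.70 in all ECs. At E15.5 Gja5 was at 76.0 CPM in these cells and 2.45 CPM in the 1606 cells without a UMI of the 3 genes, while Tgfb1 was at 74.9 and 77.1 CPM.

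**Figure D4:**
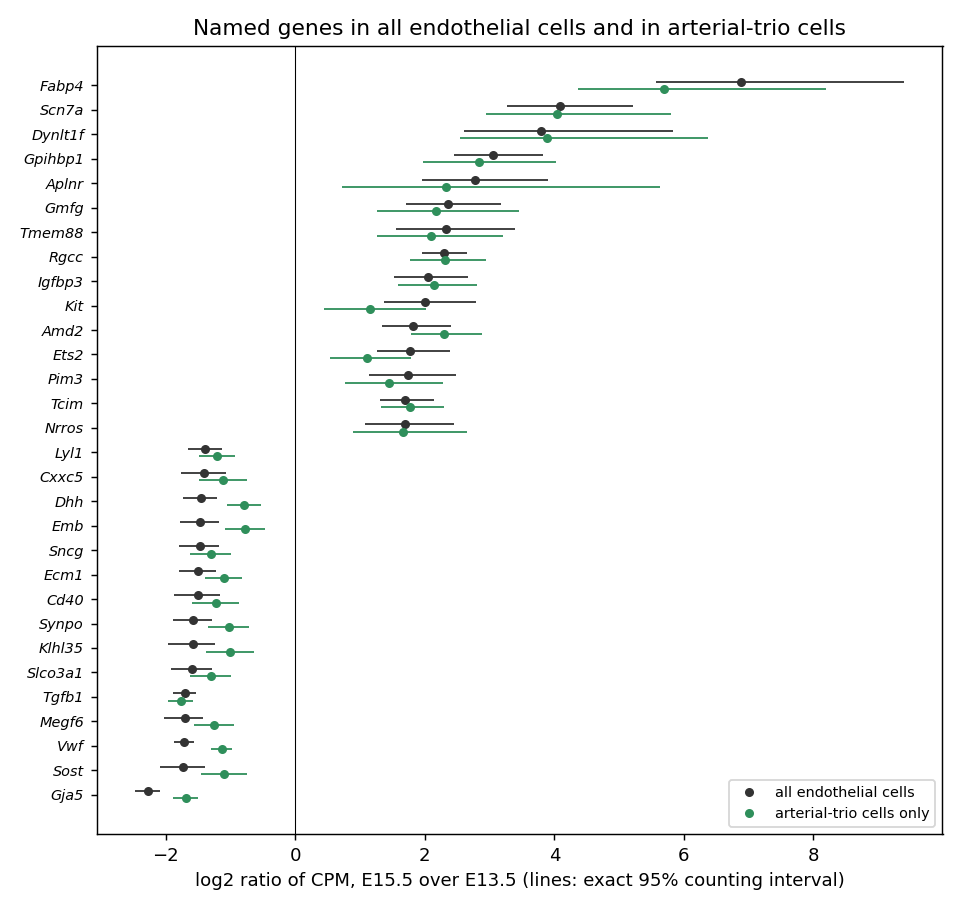
Log2 ratios of E15.5 over E13.5 (horizontal axis, lines are exact 95% counting intervals) of the 30 named genes in all ECs and in ECs with at least 4 UMIs of Gja4, Stmn2 and Hey1. The 30 genes keep their side of 0 in both sets, with Dhh and Emb inside 2-fold in the arterial cells. The second set is a part of the first, in which the genes were chosen, so the shared side is no check.

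The gene lists below were chosen with earlier results of these data known, and each is described by its measured members (at least 10 CPM at either age), to be read against the 3.38% and 3.99% of all genes past 2-fold and the overall median of -0.08. A member below 10 CPM at 1 age was counted only because it was higher at the other, which held for 387 of the 8345 genes at E13.5 and 631 at E15.5, so the counts among members of at least 10 CPM at both ages are given beside the full ones where they differ. Of the 20 arterial genes, 0 stood at least 2-fold higher at E15.5 and 1 (Gja5) at E13.5, with a median log2 ratio of -0.57. Gja4 was at 1504 CPM (1433 to 1579) and 756 CPM (751 to 762), a log2 ratio of -0.99, and Stmn2, a tubulin-binding protein, at 1890 and 1060 CPM (-0.83). Jag1, a Notch ligand, had a log2 ratio of -0.98 and the kinase gene Bmx -0.97, while Sox17 was at 670 and 657 CPM (-0.03). Without cycling cells the median of the list was -0.31, and among the arterial cells alone it was -0.08, with Gja4, Stmn2 and Hey1, which chose those cells, among its members.

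Genes of general capillary and plexus cells, without Cldn5 because the rule used it, had a median log2 ratio of 0.82. Of 11 measured, 5 stood at least 2-fold higher at E15.5 and 0 at E13.5, and of the 10 of at least 10 CPM at both ages 4 and 0, with a median of 0.70. Beside Gpihbp1, Aplnr and Kit, these were Sparcl1, a matrix protein (160 and 476 CPM, log2 ratio 1.57), and Ctla2a, a protease inhibitor (133 and 374 CPM, 1.49). Sparcl1 was also at 276 CPM in E13.5 mesenchymal cells. Tek, which encodes the angiopoietin receptor Tie2, was at 156 and 93.9 CPM (-0.73). The 10 measured genes of capillary lipid uptake had a median of 0.57 (0.37 in cells without a collagen UMI, 1.05 without cycling cells), with 3 at least 2-fold higher at E15.5 (Fabp4, Cd36 and Gpihbp1) and 0 at E13.5, of which Gpihbp1 was above 10 CPM at both ages. Lpl, the lipase that Gpihbp1 binds, had no UMI at E13.5 and was at 2.82 CPM at E15.5. The marker of the other capillary type of the mature lung, Car4, had no UMI at E13.5 and was at 0.495 CPM at E15.5. Of 5 measured genes of the Car4 list 1 (Apln) stood at least 2-fold higher at E15.5, with a median of 0.52, and of the 4 of at least 10 CPM at both ages 0 did, with a median of 0.38.

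Apart from Vwf, which the venous list also holds, venous and lymphatic genes were at low levels at both ages, with Aplnr at 65.5 CPM at E15.5 the highest value. Of 7 measured venous genes, 3 stood at least 2-fold higher at E15.5, namely Aplnr, the semaphorin and VEGF coreceptor Nrp2 (10.1 and 31.6 CPM, log2 ratio 1.60) and the venous factor Nr2f2 (7.34 and 18.3 CPM, 1.26), and 1 at E13.5 (Vwf). Nr2f2 and Nrp2 were higher in mesenchymal cells, at 128 and 57.3 CPM at E13.5. Of 4 measured lymphatic genes, 2 stood at least 2-fold higher at E15.5, Nrp2 and the hyaluronan receptor Lyve1, which had 2 UMIs (1.84 CPM) at E13.5 and was at 20.1 CPM at E15.5 (log2 ratio 3.14, 1.60 to 6.50). Prox1, the defining lymphatic factor, had no UMI at E13.5 and was at 2.91 CPM at E15.5. The medians of 0.78 (venous) and 1.19 (lymphatic, over 4 genes) changed sign among the arterial cells, to -0.18 and -0.34. Both were 0.25 in thinned cells, and they were 0.28 and 0.32 without cycling cells and 0.43 and 0.78 with no minimum level. The lymphatic median was 0.57 without lymphatic cells and 1.86 with mesenchymal RNA subtracted. Lyve1 entered it through its E15.5 level alone, as did Aplnr and Nr2f2 in the venous list. Among genes of at least 10 CPM at both ages, 1 of 5 venous genes stood higher at each age (Nrp2 and Vwf) with a median of 0.31. Of 3 such lymphatic genes, 1 (Nrp2) stood higher at E15.5, with a median of 0.78.

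In the pan-endothelial list, 17 of 20 genes were within 2-fold. Emcn, the endomucin of capillaries and veins, was at 159 and 417 CPM (log2 ratio 1.39, 1.18 to 1.62) and Sox18, a Sox factor of vessels and lymphatics, at 66.1 and 136 CPM (1.03, 0.70 to 1.39). Eng, endoglin, a coreceptor of TGF-beta and BMP ligands, was at 377 and 172 CPM (-1.13, -1.27 to -0.99). An Emcn UMI was seen in 33.5% of E13.5 and 57.2% of E15.5 thinned ECs, against 0.444% and 1.43% of mesenchymal cells. Among the tip cell and sprouting genes, 4 of 14 stood at least 2-fold higher at E15.5 (Apln, Igfbp3, the adhesion molecule Mcam at 43.1 and 97.5 CPM, and nidogen 2, Nid2, at 22.0 and 46.9 CPM) and 0 at E13.5. Esm1, a marker of tip cells, was at 10.1 CPM (5.04 to 18.1) and 12.99 CPM (12.2 to 13.8), intervals that overlap. Without Apln, which was below 10 CPM at E13.5, 3 of 13 stood higher at E15.5.

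Cxcl12 itself was at 1052 CPM (992 to 1115) at E13.5 and 752 CPM (747 to 758) at E15.5, a log2 ratio of -0.48 (-0.57 to -0.40). Only 1 working copy was present at both ages, and the mesenchymal level was 254 and 184 CPM. Within the arterial cells the log2 ratio of Cxcl12 was 0.10, and it was -0.03 after cycling cells were left out, which left 32 E13.5 cells. Cxcr4, its receptor, was at 42.2 and 33.3 CPM (-0.34, -0.76 to 0.11), and its ratio turned to 0.33 in cells without a collagen UMI. The scavenging receptor Ackr3 was at 11.02 and 27.0 CPM (1.26, 0.49 to 2.25), with a mesenchymal level of 23.2 and 47.4 CPM, and its ratio was just inside 2-fold with 5 CPM added and without lymphatic cells, and was 0.77 in thinned cells, 0.68 without cycling cells and 0.64 in the arterial cells.

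In the Notch pathway, 1 of 16 measured genes stood at least 2-fold higher at E15.5 and 2 at E13.5, with a median of -0.34. The one higher at E15.5 was the target gene Hes1 (67.9 and 261 CPM, log2 ratio 1.93, 1.61 to 2.29). Other targets went the other way, with Hey1 at 215 and 124 CPM (-0.79) and Hey2 at 24.8 and 13.7 CPM (-0.83). The ligands Jag1 (-0.98), Jag2 (-0.87) and Dll4 (-0.31) and the receptors Notch1 (-0.09) and Notch4 (-0.34) were within 2-fold. The pair higher at E13.5, Notch3 and Dlk1, were at 59.2 and 1025 CPM in E13.5 mesenchymal cells, above their 22.95 and 33.0 CPM in ECs, and both were below 10 CPM in E15.5 ECs.

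Among TGF-beta and BMP genes, 3 of 17 stood at least 2-fold higher at E13.5 and 0 at E15.5, with a median of -0.48. They were the ligand Tgfb1, the coreceptor Eng and Ltbp4, which anchors latent TGF-beta (311 and 151 CPM, -1.04). The type I receptor Acvrl1 (-0.48), Bmpr2 (-0.54) and the inhibitors Smad6 (-0.52) and Smad7 (-0.63) were lower at E15.5 within 2-fold, while the targets Id1 (373 and 368 CPM) and Id3 (1012 and 880 CPM) had ratios of -0.02 and -0.20. The median was -0.23 in thinned cells, -0.09 without cycling cells and 0.00 in the arterial cells.

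Of 8 measured VEGF ligands and receptors, 1 (Nrp2) stood past 2-fold. Kdr, the main VEGF receptor of ECs, was at 265 and 309 CPM (0.22), Flt1 at 273 and 218 CPM (-0.32) and Nrp1 at 531 and 283 CPM (-0.90). Of 6 apelin, angiopoietin and Tie genes, 2 (Apln and Aplnr) stood at least 2-fold higher at E15.5 and 1 (Angptl2) at E13.5, with a median of -0.61 that was -0.12 without cycling cells and -0.26 in the arterial cells. All 3 were below 10 CPM at the other age, and the other 3 genes were within 2-fold, with a median of -0.64. Among semaphorin, netrin and slit genes 1 of 11 stood higher at E15.5 (Sema6a, 1.05) and 2 at E13.5, Sema3f (48.7 and 18.3 CPM, -1.39) and Ntn4 (-1.33), which was below 10 CPM at E15.5. The Wnt list had 1 of 12 in each direction, Sfrp2 (1.74) and Sfrp1 (-1.77), which were at 346 and 252 CPM in E13.5 mesenchymal cells, and Sfrp1 was below 10 CPM in E15.5 ECs. The ephrin and Eph genes were within 2-fold in 8 of 8.

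Transcription factors of the endothelium were within 2-fold in 23 of 28, with a median of 0.26. Beside Ets2, Sox18 and Nr2f2, which stood higher at E15.5, Lyl1 and Foxc1 (24.8 and 9.68 CPM, -1.31) stood higher at E13.5. Mef2c (0.81) and Ets1 (0.59) were higher at E15.5 and Gata2 (-0.97) and Gata6 (-0.78) at E13.5, all within 2-fold. Nr2f2 was below 10 CPM at E13.5 and Foxc1 at E15.5. Of the 16 flow-responsive genes 2 stood at least 2-fold higher at E15.5. These were Cav1, the coat protein of caveolae (342 and 938 CPM, 1.45, 1.31 to 1.61), and the haem oxygenase Hmox1 (1.10). The flow-induced factors Klf2 and Klf4 had ratios of 0.31 and 0.25. In the list of junction, caveola and fenestra genes, without the 3 that the rule used, 2 of 15 stood at least 2-fold higher at E15.5, Cav1 and the junction protein Jam2 (34.9 and 73.6 CPM, 1.07).

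Components of the vessel wall differed in both directions. In the basement membrane list 4 of 20 stood at least 2-fold higher at E15.5 and 0 at E13.5, with a median of -0.22. The 4 were the collagen Col15a1 (8.26 and 38.0 CPM, 2.13), the integrin chains Itga6 (1.15) and Itga1 (1.04), and Nid2 (1.07), of which Col15a1 was below 10 CPM at E13.5. Col18a1, the source of endostatin, was at 833 and 431 CPM (-0.95), while Col4a1 (0.05) and Col4a2 (-0.06) were at like levels. Of 16 elastic fibre and wall genes, 4 stood at least 2-fold higher at E13.5 and 0 at E15.5, with a median of -0.52 that was -0.16 in thinned cells and -0.31 in the arterial cells. These were Mfap4 (-3.28), fibulin 1 (Fbln1, -1.15), Ltbp4 and fibrillin 1 (Fbn1, 213 and 105 CPM, -1.02). Mfap4 was at 935 CPM in E13.5 mesenchymal cells and 45.9 CPM in the ECs, and below 10 CPM in E15.5 ECs. Without it the median was -0.33. Elastin (Eln) was at 820 and 755 CPM (-0.12). In the haemostasis list 1 of 13 (Vwf) stood past 2-fold, and among leukocyte adhesion genes 1 of 9 stood higher at E15.5 (Jam2) and 2 at E13.5, Cd40 and Madcam1 (21.1 and 8.72 CPM, -1.23, below 10 CPM at E15.5).

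Of 15 imprinted genes, with a median of -0.18, 1 stood at least 2-fold higher at E15.5, Mest (455 and 1204 CPM, 1.40, 1.28 to 1.53), and 5 at E13.5, H19 (1591 and 692 CPM, -1.20), Dlk1 (-2.54), Dcn (-2.53), Nnat (-1.34) and Meg3 (-1.33). Dlk1, Meg3, Dcn and Nnat were higher in E13.5 mesenchymal cells than in ECs. With mesenchymal RNA subtracted the median turned to 0.42, and it was 0.08 at 50 CPM and 0.01 in the arterial cells. Dlk1 and Dcn were below 10 CPM at E15.5. Of the 12 genes of at least 10 CPM at both ages, 3 stood higher at E13.5. In mesenchymal cells H19 was higher at E15.5 than at E13.5, at 763 and 1145 CPM. Among fetal RNA-binding and let-7 target genes 2 of 8 stood at least 2-fold higher at E13.5, Hmga2 (65.2 and 30.8 CPM, -1.07) and Arid3a (-1.09), and 0 at E15.5. Of the 10 insulin-like growth factor genes 2 stood higher at E15.5, Igfbp3 and Igfbp7 (100 and 338 CPM, 1.75), with a median of 0.02 that lay between -0.09 and 0.37 over the settings tried.

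Of 10 measured interferon, Ly6 and Ifitm genes, 4 stood at least 2-fold higher at E15.5 and 0 at E13.5, with a median of 0.20 that was 0.41 in cells without a collagen UMI, 0.46 at 50 CPM, 0.67 in thinned cells, 1.04 without cycling cells and 0.11 with no minimum level. Of the 7 of at least 10 CPM at both ages, 2 did, with a median of 0.08. The surface proteins Ly6c1 (4 UMIs or 3.67 CPM at E13.5, 33.6 CPM at E15.5, log2 ratio 3.03) and Ly6a (6 UMIs or 5.51 CPM, and 40.2 CPM, 2.76), which mark many mature capillary ECs, led the list, followed by Ly6e (1.36) and Bst2 (1.31), while Ifitm2 (-0.38) and Ifitm3 (-0.55) were lower within 2-fold. For Ly6c1, 27.6% of 3′ stretches recur in Ly6a or Ly6c2. The 8 measured genes of antigen presentation were within 2-fold.

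Of the immediate-early and stress genes, which can respond to tissue dissociation, 8 of 21 stood at least 2-fold higher at E15.5 and 0 at E13.5, with a median of 0.90. Of the 19 of at least 10 CPM at both ages, 6 did, with a median of 0.82. The list was led by Zfp36 (11.02 and 51.1 CPM, 2.16) and Socs3 (9.18 and 38.8 CPM, 2.02). Fos was at 60.6 and 188 CPM (1.63), and in mesenchymal cells at 483 and 1162 CPM, the same order as in the ECs. Heat shock genes of the same list, such as Hspa8 (-0.16) and Hspa1a (-0.30), did not share it. Hes1, Rgcc and Ets2 are reported beside this difference, and its part in them was not tested.

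Genes of the cell cycle were detected in most cells at both ages. At least 2 UMIs of 58 S phase and G2/M genes together were seen in 79.4% (72.1% to 85.4%) of E13.5 and 70.6% (69.6% to 71.5%) of E15.5 ECs thinned to 3000 UMIs, and at least 5 UMIs in 42.6% and 39.4%. Without thinning the shares were 93.8% and 92.7%. The mesenchymal cells of the E13.5 library held the S phase list at 1500 CPM and the G2/M list at 2917 CPM, above the 1198 and 1885 CPM of its ECs, and a part of free RNA in the shares was not tested. The S phase list had 0 of 25 genes past 2-fold and a median of -0.26. The G2/M list had 2 of 32 past 2-fold, both higher at E15.5, and a median of 0.30. They were the mitotic kinase genes Cdk1 (83.5 and 172 CPM, 1.04, 0.75 to 1.36) and Aurkb (21.1 and 44.0 CPM, 1.04, 0.47 to 1.72). Ccnb2, a partner of Cdk1, was at 50.5 and 87.3 CPM (0.78, 0.41 to 1.20). Within the arterial cells the S phase median was -0.85 and the G2/M median -0.02. In cells without a collagen UMI the G2/M median was 0.70, and it was -1.03 in the cells left when those with at least 2 of these UMIs were taken out.

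TTTGAA and CCAAT were picked with the G2/M list in mind, so their shares describe that list and not a difference between the ages. The windows of Cdk1 (chr10:69352863-69353162, minus strand) and Ccnb2 (chr9:70421505-70421804, minus strand) are printed from the same RefSeq build. All letters looked for in the windows of Gja5 and Scn7a stand in capitals, the NF-Y box as ATTGG where it is on the other strand.
Cdk1: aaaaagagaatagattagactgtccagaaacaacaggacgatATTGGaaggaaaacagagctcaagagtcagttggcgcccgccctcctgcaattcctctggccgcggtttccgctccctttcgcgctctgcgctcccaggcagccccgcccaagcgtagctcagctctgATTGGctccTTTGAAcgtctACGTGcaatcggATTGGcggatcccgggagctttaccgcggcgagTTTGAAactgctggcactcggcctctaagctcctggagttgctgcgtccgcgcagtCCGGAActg
Ccnb2: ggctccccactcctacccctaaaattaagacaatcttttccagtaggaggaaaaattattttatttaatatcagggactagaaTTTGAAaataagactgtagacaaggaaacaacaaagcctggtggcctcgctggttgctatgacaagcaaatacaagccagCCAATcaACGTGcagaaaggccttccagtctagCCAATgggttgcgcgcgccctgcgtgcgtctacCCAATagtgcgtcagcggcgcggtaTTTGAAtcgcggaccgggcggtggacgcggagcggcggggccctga
TTTGAA was in 22 of the 29 G2/M genes with a promoter in the table (75.9%), against 13.8% of measured genes and 20.2% of all genes with a promoter there. CCAAT was in 22 of 29 (75.9%), against 42.8% and 41.1%. A match of letters is a description of these windows and not of binding.

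The 30 nuclear genes of oxidative phosphorylation were all within 2-fold with a median of 0.21. The 20 measured genes of glycolysis and hypoxia had a median of 0.00, with Gapdh at 1098 and 1095 CPM, and 3 stood at least 2-fold higher at E15.5, Bnip3 (1.53), Ankrd37 (43.1 and 121 CPM, 1.48) and Ndrg1 (1.37), of which Ankrd37 was above 10 CPM at both ages. Of the 12 measured histone genes, 1 stood higher at E15.5 (Hist1h1b, 1.20) and 2 at E13.5 (lowest ratio -1.27), and of 8 cell cycle inhibitors 1 stood higher at E15.5 (Cdkn1b, 12.9 and 27.5 CPM, 1.07). Of 20 cholesterol synthesis genes, 3 stood at least 2-fold higher at E13.5 and 0 at E15.5, with a median of -0.21. That median was -0.40 without cycling cells, -0.35 in the arterial cells and 0.07 at 50 CPM. Of the 19 of at least 10 CPM at both ages, 2 stood higher at E13.5, with a median of -0.19.

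**Figure D5:**
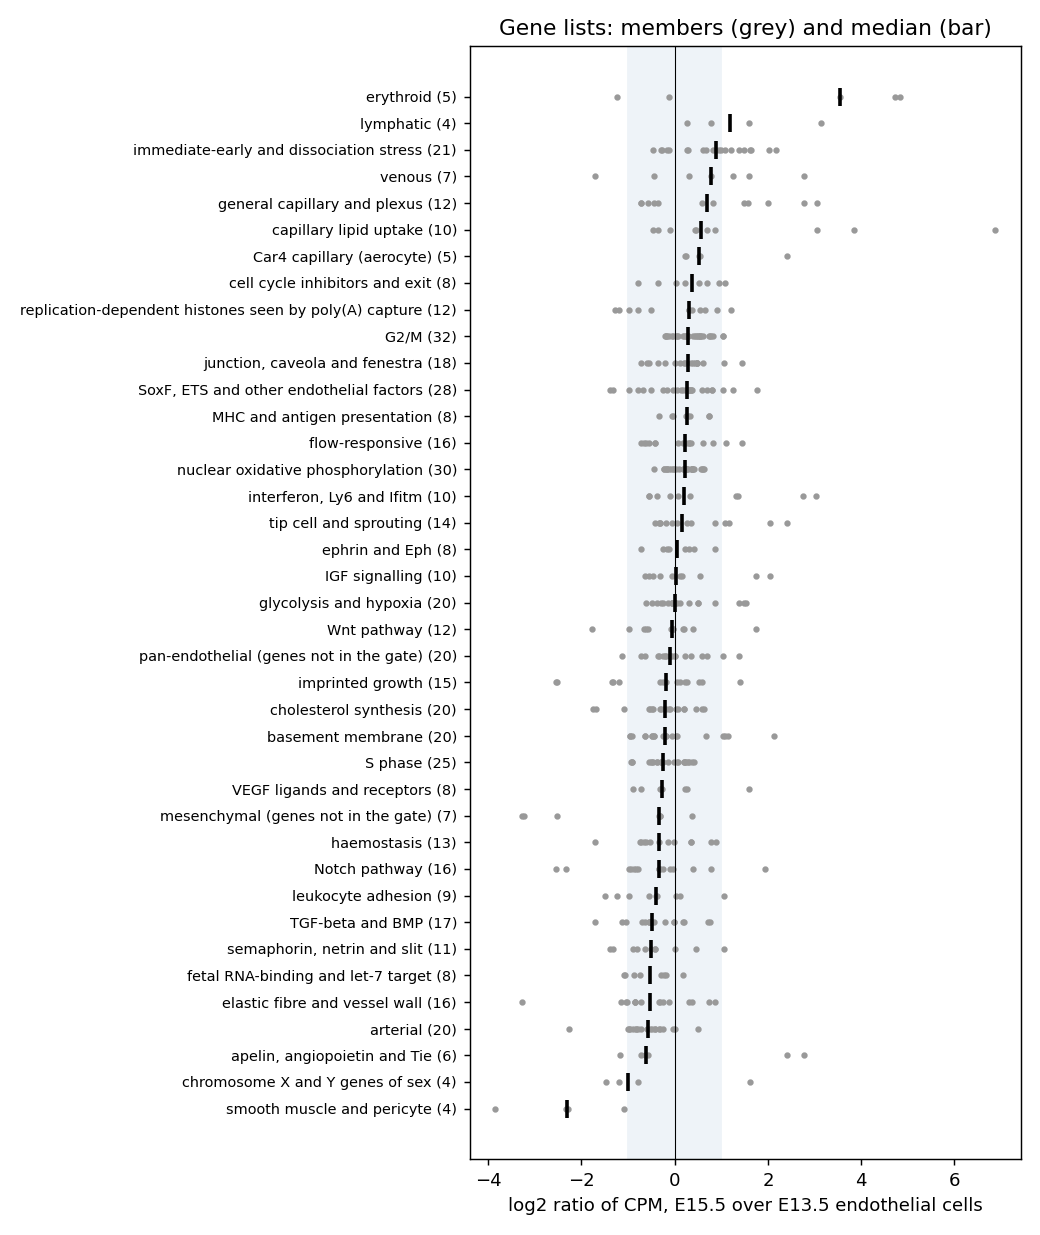
Log2 ratios of E15.5 over E13.5 in ECs (horizontal axis) for the measured members (grey points) and the median (black bar) of 39 gene lists, with the number of measured members in brackets and 2-fold either way shaded. The median of the arterial list lies left of 0 at -0.57, with members up to 0.50, and those of the capillary and plexus (drawn with Cldn5), lipid uptake and immediate-early lists lie right of it at 0.70, 0.57 and 0.90. The medians of the smooth muscle and pericyte list (-2.31) and of the erythroid list (3.54) lie furthest out.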

How the data were processed

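The authors made 3′ libraries from sorted cells, ran CellRanger on mm10 (the submitters' processing notes name 3.1, the deposited headers 3.1.0 for E13.5 and 3.0.2 for E15.5) and deposited raw UMI counts. The deposited names of genes and barcodes were used as given, and whole-lung libraries were not used here. UMIs of the ECs of a library were summed and scaled to CPM of all UMIs. Levels carry exact Poisson intervals and shares Clopper-Pearson intervals. Log2 ratios (0.5 CPM added) carry exact conditional intervals of the counts without that addition, so at few UMIs a printed ratio sits low in its interval. The ratio, its interval and the thinning were run on simulated Poisson counts, the model that the intervals assume. That run checks the computing alone and holds no spread between cells or lungs. The libraries held 102675363 and 117522172 UMIs. The members, the gene lists and the motifs were chosen with earlier results of these data known. The named genes were the 15 with the largest ratio each way among those with at least 50 CPM at 1 age, at least 2 times the mesenchymal level of the library where they were higher, and 1 direction under every processing setting tried other than arterial cells alone, leaving out haemoglobin, mitochondrial, ribosomal protein and sex genes, the rule's genes and unnamed gene models. For most lists, some of the members with the largest ratios or the highest level were named. Cells thinned to 3000 UMIs used 1 seeded draw. To subtract mesenchymal RNA, 12.4% (E13.5) and 4.89% (E15.5) of the mesenchymal profile of the same library was taken from the EC profile. These shares came from the summed mesenchymal list, most of which was Col5a2 and Mfap2. Whether they are too large for other genes was not tested. Promoter windows came from RefSeq (GRCm38.p6) and 3′ ends from GENCODE. Python 3.11.15, numpy 2.4.6, scipy 1.17.1, pandas 2.3.3 and scanpy 1.11.5 (Scrublet) were used.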

Additional observations from a re-analysis of the deposited data

How the results depend on the processing

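The number of genes at least 2-fold higher at E15.5 (282) was 166 with 5 CPM added, 488 in ECs without a collagen UMI, 482 in thinned cells, 946 without cycling cells (32 E13.5 cells remained), 104 at a minimum of 50 CPM and 1245 with no minimum. The number higher at E13.5 (333) was 172, 534, 542, 994, 74 and 1359 in the same settings. Thinning, the left-out cells and the collagen limit lower the UMIs behind these counts, and the minimum level sets how many genes enter them. ECs without a collagen UMI were 0.574% of the E13.5 and 60.3% of the E15.5 cells. Cycling shares were 63.8% and 58.5% after thinning to 2000 UMIs and 93.8% and 92.7% without thinning. Among arterial cells, 9 lists in place of 14 had a median of at least 0.5 either way, and the medians of the venous (-0.18) and lymphatic (-0.34) lists changed sign. That of the sex genes did so at 50 CPM (1.61), where fewer genes entered. Of all 462 values of the 30 named genes, Cxcl12, Cxcr4 and Ackr3 over all settings tried, 416 lay within the counting interval of the reported value. The naming rule asked for 1 direction in all settings but arterial cells alone, so signs are no sign of stability. Without cycling cells Emb (-0.17), Dhh (-0.88), Lyl1 (-0.97) and Nrros (0.77) were inside 2-fold, and in thinned cells Synpo (-0.96) and Dhh (-0.99). Without cycling cells Sost was -1.08, while Scn7a (7.61), Aplnr (5.21), Fabp4 (9.92), Tmem88 (3.16), Igfbp3 (2.78) and Amd2 (2.75) had larger ratios and Dynlt1f (3.04) a smaller one. Fabp4, Scn7a and Aplnr had 3, 10 and 10 UMIs in all E13.5 ECs. Few or none can remain where cells are left out or RNA is subtracted, so the 0.5 CPM added weighs on such ratios and their size is not read. With 5 CPM added, Fabp4 was 5.65 and Dynlt1f 2.84. Gpihbp1 was 3.67 by the mean of per-cell CPM, 3.80 in cells without a collagen UMI and 3.99 in thinned cells, and Aplnr 3.66 without doublets. In cells without a collagen UMI, Fabp4 was 9.64, Dynlt1f 4.47 and Tmem88 3.01, and Cxcr4 turned to 0.33. Fabp4 was 9.32 with mesenchymal RNA subtracted and 5.70 in the arterial cells. The median of the Car4 list was 0.27 in thinned cells, 1.07 without cycling cells and 0.22 at 50 CPM, that of the Notch list -0.56 without cycling cells and -0.22 in the arterial cells, and that of the basement membrane list -0.33 with mesenchymal RNA subtracted, -0.05 without cycling cells and -0.10 in the arterial cells. The S phase median lay between -0.16 and -0.12 without doublets, with mesenchymal RNA subtracted and in thinned cells, and was 0.03 without cycling cells. The median of the endothelial factors was 0.16 in cells without a collagen UMI, and that of oxidative phosphorylation 0.09 in the arterial cells. No paired analysis was possible because there was 1 library at each age, and for the same reason no replicate could be left out. Depth limits the E13.5 side, where 1 UMI in the summed ECs is 0.918 CPM.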
